A study of Homo sapiens with 8 samples.

Results

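The SLCO1 transporter stretch lies on the short arm of human chromosome 12 and was followed here by the time in S phase at which its DNA was copied. It was defined by 10 neighbouring genes out of 19126 autosomal protein-coding genes: SLCO1C1, SLCO1B3, SLCO1B1, SLCO1A2, IAPP, PYROXD1, LDHB, KCNJ8, ABCC9 and CMAS. From the start of SLCO1C1 to the end of ABCC9 it spans 1246 kb (chromosome 12, 20695332 to 21941426, GRCh38), here called the core, and CMAS lies beyond it. The genes were picked as neighbours in a region already seen to be copied later in CFAP20-KO cells, so every KO against WT value of them is a description. Calls of members from fits over all windows are given beside the share of all windows called, and nothing is read from them.

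The cells were of RPE-1 hTERT, a telomerase-immortalised line from human retinal pigment epithelium, either wild-type (WT) or with CFAP20, a gene of cilia and flagella, knocked out (KO). Both were labelled once with EdU (10 µM for 15 min), a thymidine analogue that marks new DNA, and had no other treatment. Single cells of both genotypes were sorted into each of 8 plates. How many KO clones were used, and whether plates came from separate cultures, is not given in the sources used. The p-values therefore cover only the spread from plate to plate, which may be technical. The assay reads DNA, so the retinal identity of the cells was not checked by markers, and the labels' genotype field names the knockout for every plate while each cell's genotype came from the deposited files.

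Human cells copy their DNA in megabase domains, and active, gene-rich domains usually come early while silent, gene-poor ones come late. The SLCO1 genes encode organic anion transporting polypeptides, membrane carriers for bile acids, thyroid hormones, steroid conjugates and many drugs. They are best known from liver, where SLCO1B1 and SLCO1B3 take compounds up from blood, and from the blood-brain barrier, where SLCO1C1 carries thyroid hormone. Their neighbours include LDHB, a subunit of lactate dehydrogenase, and the channel pair KCNJ8 and ABCC9.

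Promoter sequences show how unlike the genes of the stretch are. Below are 300 bases, 250 before and 50 after the start, of both liver transporters and of LDHB, a metabolic gene in use in most tissues. They are from RefSeq (GRCh38.p14), written 5′ to 3′ on the gene's own strand, with CG pairs in capitals. They are SLCO1B3 (chr12:20810455-20810754, plus strand), SLCO1B1 (chr12:21130944-21131243, plus strand) and LDHB (chr12:21657793-21658092, minus strand).
SLCO1B3: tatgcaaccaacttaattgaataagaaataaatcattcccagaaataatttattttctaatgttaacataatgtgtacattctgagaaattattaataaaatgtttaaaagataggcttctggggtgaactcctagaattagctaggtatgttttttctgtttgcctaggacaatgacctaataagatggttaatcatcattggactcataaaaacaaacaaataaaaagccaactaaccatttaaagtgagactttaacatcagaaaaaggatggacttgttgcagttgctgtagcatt
SLCO1B1: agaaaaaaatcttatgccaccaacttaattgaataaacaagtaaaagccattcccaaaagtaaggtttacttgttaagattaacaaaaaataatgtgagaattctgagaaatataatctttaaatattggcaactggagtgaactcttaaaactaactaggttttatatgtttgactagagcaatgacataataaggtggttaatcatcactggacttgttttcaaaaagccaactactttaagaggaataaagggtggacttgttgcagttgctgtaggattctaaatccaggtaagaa
LDHB: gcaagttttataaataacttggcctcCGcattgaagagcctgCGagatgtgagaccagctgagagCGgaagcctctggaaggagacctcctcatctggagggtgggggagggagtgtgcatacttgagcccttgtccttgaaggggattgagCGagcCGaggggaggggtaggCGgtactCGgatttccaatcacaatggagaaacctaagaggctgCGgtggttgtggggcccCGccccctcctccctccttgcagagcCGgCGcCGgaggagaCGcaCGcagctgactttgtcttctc
Neither liver transporter has a CG pair in this window, and the window of LDHB has 14. The letters CG were found in 96.0% of 35116 RefSeq windows of this length, with a median of 14. The SLCO1B3 and SLCO1B1 windows were identical at 63.7% of 339 aligned columns, against 41.3% for SLCO1B3 and LDHB. Of the 10 members, 9 had an entry. The windows of KCNJ8, ABCC9 and CMAS held 16, 18 and 22 CG pairs, that of PYROXD1 held 24 but begins inside the gene, and each window of SLCO1A2 and IAPP held 0 or 2.

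The plates held 26148975 fragments, 1746074 to 4181841 each, in 3023 wells. Of these wells, 2430 held at least 1000 autosomal molecules, 1290 WT and 1140 KO, and these cells were used. The same 378 well barcodes recur in the plates by design, 377 of them in all 8. No 2 plates held the same library: between 28 pairs chi-squared was 2.73 to 5.66 times its degrees of freedom. A cell had 11051 ± 2709 autosomal molecules in WT and 8232 ± 1834 in KO (mean of plate means ± SD, n = 8), and KO cells lay later in S phase, with a mean position of 0.518 ± 0.0214 against 0.485 ± 0.0198. Their part in the differences below was not tested. Chromosome 12 took 4.84% ± 0.0803 of autosomal molecules in WT and 4.87% ± 0.115 in KO (SD, n = 8).

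Timing is the mean S-phase position of the cells that were labelled in a region, weighted by their molecules there, from 0 (earliest) to 1 (latest). It was taken per plate and genotype, giving 16 libraries. Differences between genotypes were centred on the median gene window of each library, since timing was later in KO by 0.0289 at that median. Timings of single libraries, and whether the genotypes overlap in them, are given without centring. Genes under 50 kb were read in a 50 kb window around them. Such windows hold other genes too, and the strand of transcription plays no part in them.

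In WT cells the stretch was not a single late block. SLCO1C1 and SLCO1B3 were late, SLCO1B1 came earlier, PYROXD1 was the earliest member, and timing rose again to KCNJ8 and ABCC9 before it fell at CMAS. No difference between the core as a whole and its surroundings was found in WT: the timing of the core was 0.490 ± 0.0588 and that of the 1 Mb flanks 0.488 ± 0.0413 (SD, n = 8 plates). The difference was 0.00202 ± 0.0288 (exact two-sided sign-flip permutation, p = 0.852, later in 3 of 8 plates). For labelling density the log2 ratio of molecules per kb, core over flanks, was -0.01 ± 0.07 (exact sign-flip permutation, p = 0.555, higher in 3 of 8 plates).

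Adjacent members were compared in WT cells over the 8 plates by exact two-sided sign-flip permutation, with p-values adjusted over 9 pairs. The design cannot give a raw p under 0.00781. SLCO1B1 was earlier than SLCO1B3, with a difference of -0.156 ± 0.0905 (7 of 8 plates, exact test, adjusted p = 0.0281). SLCO1A2 was earlier than SLCO1B1 in 8 of 8 plates, with a difference of -0.180 ± 0.0539 (exact test, adjusted p = 0.0234). PYROXD1, a flavin-dependent oxidoreductase, was earlier than IAPP, with -0.116 ± 0.133 (7 of 8 plates, exact test, adjusted p = 0.0281). In plate 8 these WT timings, 0.135 and 0.561, rested on only 3 and 4 molecules. The windows of PYROXD1, IAPP and CMAS are under the minimum of 10 molecules in every library used for the fits below. LDHB was then later than PYROXD1, with 0.118 ± 0.0516, and CMAS earlier than ABCC9, with -0.148 ± 0.107, each in 8 of 8 plates (exact tests, adjusted p = 0.0234 for both). The first 4 of these steps outline a local early valley whose floor is at PYROXD1, and CMAS is a further fall beyond ABCC9. Without plate 2, 3, 4, 5 or 8 in turn, 3 of the 9 pairs passed. With a plate left out the smallest possible raw p is larger. The drop in this count therefore cannot show that the steps are unstable. SLCO1C1 and SLCO1B3 differed by 0.00986 ± 0.0678, KCNJ8 and ABCC9 by 0.0401 ± 0.0929, and SLCO1A2 and IAPP, whose windows share 50 kb, by 0.0286 ± 0.0938, all within their spread (exact tests, adjusted p = 0.711, 0.372 and 0.589). KCNJ8 was later than LDHB by 0.107 ± 0.118 but missed the threshold (exact test, adjusted p = 0.0703).

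**Figure D1:**
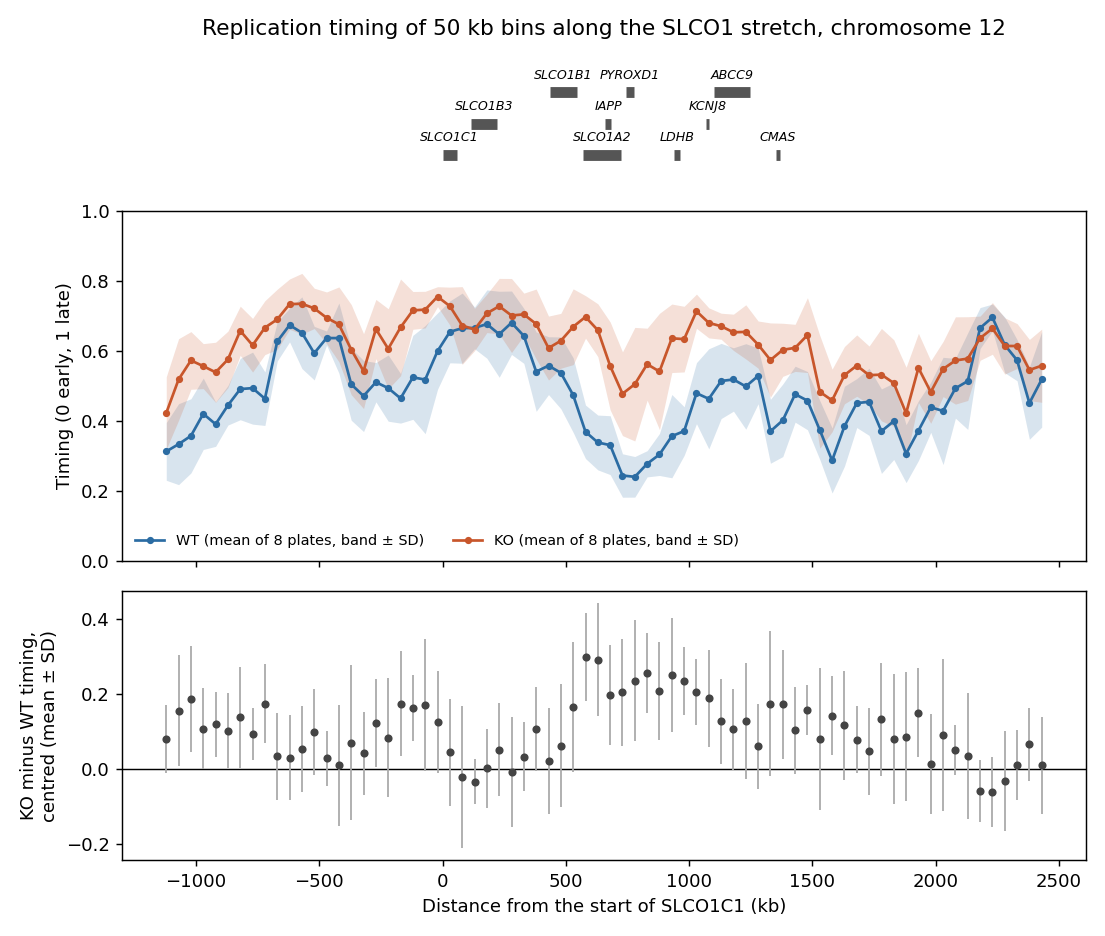
Timing of 50 kb bins against distance from the start of SLCO1C1 (kb), with the genes as bars on top, WT and KO as means of 8 plates with a band of ± SD, and below it the centred KO minus WT difference (mean ± SD, n = 8). The WT curve dips to 0.240 near PYROXD1, the KO curve is flatter there, and both run together over SLCO1C1 and SLCO1B3.

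In KO cells the valley was shallower. Over 30 bins of 50 kb that cover the members, WT timing ran from 0.240 to 0.680, a range of 0.441. KO timing ran from 0.477 to 0.755, a range of 0.278. Among all gene windows, early and late ones also drew together in KO. Windows within 0.05 of the WT timing of PYROXD1 had a median centred difference of 0.0104. Those within 0.05 of SLCO1C1 had -0.0623. The part of this in the narrower range was not tested. The earliest WT bin was chromosome 12, 21450001 to 21500000, over PYROXD1 and RECQL, with timing 0.240 ± 0.0583 in WT and 0.505 ± 0.162 in KO (SD, n = 8). An unbroken run of 12 bins, 600 kb from 21200001 to 21800000, had a centred difference of at least 0.15 in each bin, with a mean of 0.228 and single bins from 0.167 to 0.300. Its first bin, with 0.167 ± 0.173, was later in only 6 of 8 plates. Other runs nearby were shorter, the longest 150 kb each, from 19150001 to 19300000 and from 20500001 to 20650000. How often bins elsewhere in the genome reach 0.15 was not measured. Of the 30 bins, 9 were later in KO in 8 of 8 plates, and 3 had a difference below 0. Each bin rested on 174 to 475 molecules per genotype.

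The members therefore did not all share the later timing by which the region was known. For the core as a whole the centred KO minus WT difference was 0.135 ± 0.0574 (0.0745 to 0.248, later in 8 of 8 plates, n = 8). It was 0.00567 ± 0.0836 (5 of 8 plates) from SLCO1C1 to SLCO1B3, 0.245 ± 0.0805 (8 of 8) from SLCO1A2 to LDHB, and 0.142 ± 0.0833 (8 of 8) from KCNJ8 to ABCC9. The flanks were also later in KO, by 0.105 ± 0.0393 on the left (8 of 8 plates) and 0.0669 ± 0.0373 on the right (7 of 8). These values depend on how cells are weighted. With equal weight for each labelled cell the core difference was 0.000505 ± 0.0290 (4 of 8 plates), and SLCO1A2 to LDHB kept 0.0605 ± 0.0549 (7 of 8). In the core, 907 of 1290 WT and 760 of 1140 KO cells were labelled, and equal weight counts each of them the same. The equal-weight timing of the core, 0.488 in WT and 0.532 in KO, lay near the mean position of all cells, 0.485 and 0.518. In so wide a region this weighting cannot show whether a timing difference is absent. From SLCO1A2 to LDHB, 50% of the molecules came from 61 of 524 labelled WT cells and from 49 of 401 labelled KO cells.

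Among the transporters, SLCO1C1 had WT timings of 0.443, 0.681 and 0.720 (lowest, median and highest of 8 plates) and KO timings of 0.673, 0.726 and 0.804. Its groups overlapped, and the centred difference was 0.0501 ± 0.140 (SD, later in KO in 5 of 8 plates). SLCO1B3 had 0.583, 0.692 and 0.719 in WT against 0.588, 0.706 and 0.745 in KO. That is a difference of 0.000922 ± 0.0674, later in 4 of 8 plates, far less than its spread between plates. SLCO1B1 had 0.415, 0.490 and 0.615 in WT against 0.429, 0.676 and 0.713 in KO. Of its KO libraries, 7 of 8 lay above the highest WT library, and the difference was 0.108 ± 0.161 (6 of 8 plates).

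SLCO1A2, which carries bile salts and drugs in brain, kidney and gut, had the largest difference between genotypes among the members. Those of LDHB, CMAS and PYROXD1, at 0.242, 0.240 and 0.239, were close to it, well within the spread between plates. Its WT timings were 0.222, 0.327 and 0.442 and its KO timings 0.501, 0.629 and 0.661 (lowest, median and highest). Every KO library lay above every WT library, and the centred difference was 0.247 ± 0.0969 (0.0793 to 0.361, 8 of 8 plates). SLCO1A2 is transcribed from the minus strand, and when the gene was cut into 2 equal parts the 3′ part was the later in both genotypes. The 3′ part minus the 5′ part was 0.0613 ± 0.0611 in WT (6 of 8 plates) and 0.156 ± 0.147 in KO (7 of 8 plates). The same value for SLCO1B3, SLCO1B1 and ABCC9 ran from -0.0358 to 0.0478 over both genotypes, within its SD in each.

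IAPP encodes amylin, a peptide released with insulin, and lies within the span of SLCO1A2. Its window had WT timings of 0.248, 0.318 and 0.561 and KO timings of 0.298, 0.629 and 0.688, a difference of 0.194 ± 0.165 (6 of 8 plates). PYROXD1 had 0.130, 0.252 and 0.360 in WT against 0.222, 0.511 and 0.721 in KO, a difference of 0.239 ± 0.174 (7 of 8 plates). The genotypes overlapped in both genes, and the poorest library held only 4 molecules for IAPP and 3 for PYROXD1.

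LDHB, whose product favours the turning of lactate into pyruvate, had WT timings of 0.286, 0.360 and 0.461 and KO timings of 0.452, 0.620 and 0.760. The groups overlapped by 1 KO library, and the difference was 0.242 ± 0.139 (8 of 8 plates). CMAS, which activates sialic acid for the sugar chains of glycoproteins, had 0.232, 0.383 and 0.469 in WT against 0.445, 0.663 and 0.710 in KO, a difference of 0.240 ± 0.1498 (8 of 8 plates). So the later timing reached past the core on its right side, and the poorest library of CMAS held 8 molecules.

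KCNJ8 encodes the pore and ABCC9 the sulfonylurea receptor subunit of an ATP-sensitive potassium channel of muscle and vessels. KCNJ8 had WT timings of 0.280, 0.498 and 0.606 and KO timings of 0.623, 0.685 and 0.727, with no overlap, and a difference of 0.189 ± 0.109 (8 of 8 plates). ABCC9 had 0.378, 0.532 and 0.615 in WT against 0.642, 0.648 and 0.751 in KO, again with no overlap, and a difference of 0.129 ± 0.0822 (8 of 8 plates). Overlap was judged before centring. The gaps, from 0.606 to 0.623 for KCNJ8 and from 0.615 to 0.642 for ABCC9, are narrower than the shift of 0.0289 at the median window. In both genes the KO libraries lay closer together than the WT libraries, with SDs of 0.0403 and 0.0367 against 0.125 and 0.0774. That difference in spread was not tested.

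**Figure D2:**
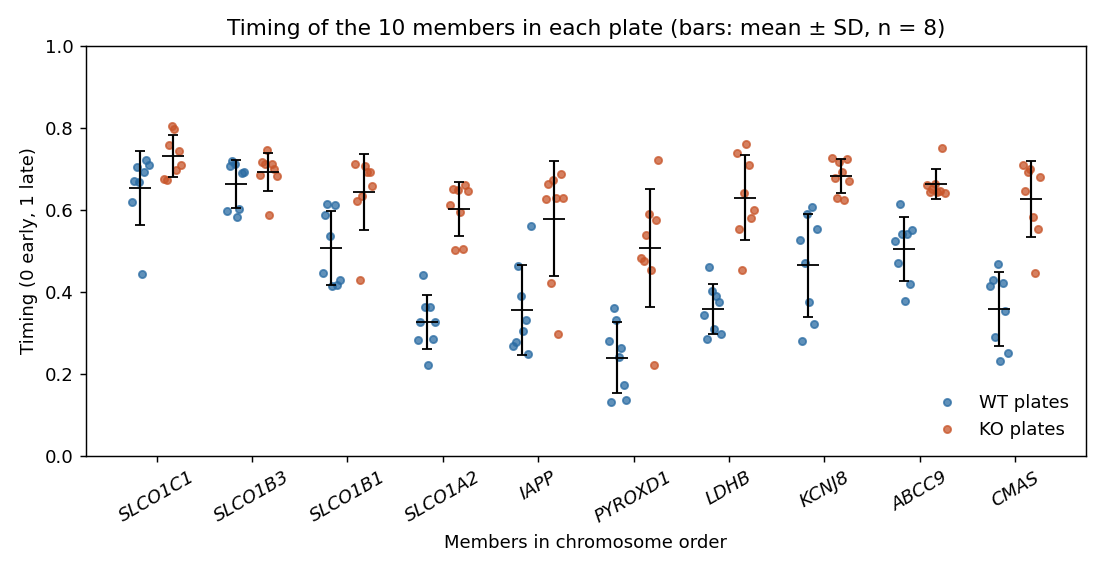
Timing (0 early, 1 late) of the 10 members in chromosome order, with a point for each of 8 plates in WT and KO and bars for the mean ± SD. SLCO1A2, KCNJ8 and ABCC9 have no overlap between genotypes, and the SLCO1C1 and SLCO1B3 groups overlap over most of their range.

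With equal weight for each labelled cell 9 of the 10 differences were closer to 0, and their order changed. PYROXD1 then had a difference of 0.194 ± 0.157, LDHB 0.181 ± 0.126, CMAS 0.169 ± 0.114 (each later in 7 of 8 plates) and SLCO1A2 0.105 ± 0.0644 (8 of 8). KCNJ8 had 0.0824 ± 0.0784 (8 of 8), ABCC9 0.0325 ± 0.0378 (7 of 8), SLCO1C1 -0.00803 ± 0.115 (4 of 8) and SLCO1B3 -0.00949 ± 0.0505 (3 of 8). PYROXD1, LDHB and CMAS thus kept more of their difference than ABCC9, a contrast that was not tested. Their windows are 50 kb wide, with 118, 123 and 128 labelled WT cells, and that of ABCC9 is 144 kb, with 273. Gene and width of the window cannot be told apart in this contrast with ABCC9. At equal width the members also differed in the part they kept. KCNJ8 and IAPP were read in 50 kb windows too, with 117 and 105 labelled WT cells. With equal weight KCNJ8 went from 0.189 to 0.0824, and IAPP from 0.194 to 0.104 ± 0.111 (later in 6 of 8 plates). SLCO1B1, read over 109 kb, had 0.0415 ± 0.136 (5 of 8). What sets the part kept was not tested.

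Across all autosomal gene windows with at least 10 molecules in every library, limma called 5.47% later and 13.0% earlier in KO (6567 windows, adjusted p under 0.05) (with plates as blocks, 4.90% and 12.5%). Of the 10 members, 7 entered this fit, since IAPP, PYROXD1 and CMAS fell under the minimum, and the same 4 were called later in both fits: SLCO1A2, LDHB, KCNJ8 and ABCC9. The members were chosen on the same contrast. The 6567 windows had a median difference of 0.000761, with the 5th percentile at -0.168 and the 95th at 0.103. The 7 members among them had a median of 0.129, and all 10 members, with the 3 under the minimum, had 0.192. After centring, KO timing was later in 8 of 8 plates in 2.85% of all windows. Without centring, every KO library lay above every WT library in 1.26%. Against windows within 0.05 of its own WT timing, a member's difference lay above the 95th percentile for 7 of the 10 and below it for SLCO1C1, SLCO1B3 and SLCO1B1. These 7 include IAPP, PYROXD1 and CMAS, although the reference holds only windows that passed the minimum. That reference varies with timing: its median was -0.0117 for SLCO1A2 (5th to 95th percentile -0.110 to 0.141, 889 windows) and -0.0605 for SLCO1B3 (-0.243 to 0.0681, 542 windows). ABCC9, at 0.129, lay just above its 95th percentile of 0.126.

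**Figure D3:**
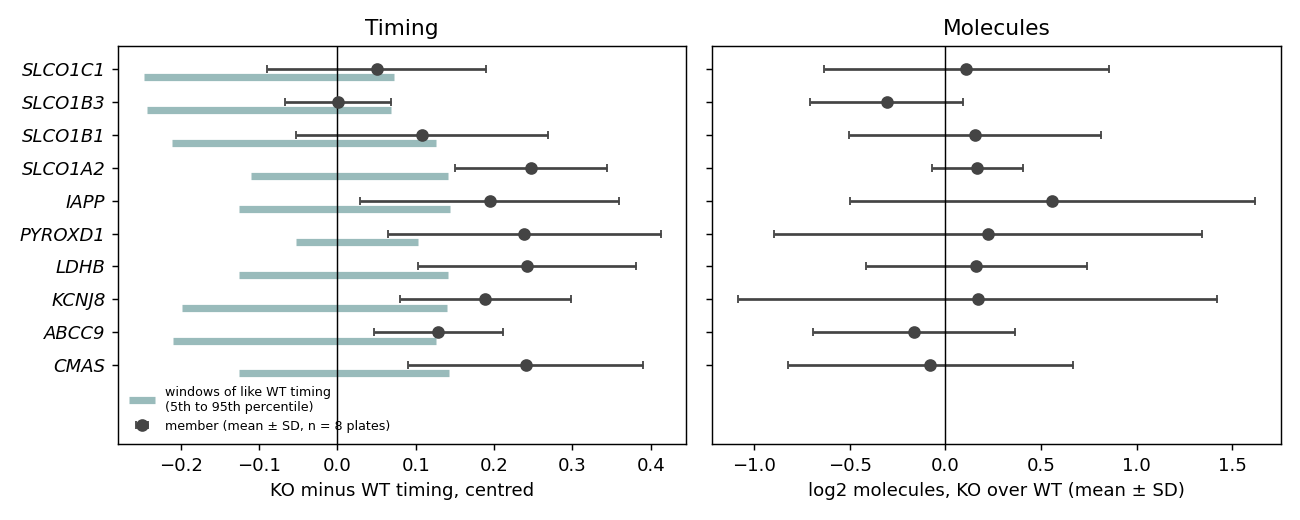
Left, centred KO minus WT timing of each member (mean ± SD, n = 8 plates) above a bar for the 5th to 95th percentile of windows with like WT timing. Right, log2 molecules of KO over WT (mean ± SD); timing differences run from 0.000922 to 0.247, and the SD bars of the molecules cross 0 for every member.

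The timing difference can be shown in another form, with the same molecules, by cutting the S-phase order into 4 equal sections. Density here is molecules per kb relative to the autosomes of the same cells. In the first section SLCO1A2 to LDHB had a density of 1.96 ± 0.269 in WT and 0.773 ± 0.312 in KO, and KO was higher in 0 of 8 plates. The lowest WT plate, at 1.61, lay above the highest KO plate, at 1.15. In the last section the order was turned, with 0.370 ± 0.196 in WT and 1.25 ± 0.513 in KO (KO higher in 7 of 8 plates). The first section supplied 62.2% ± 7.47 of the molecules of SLCO1A2 to LDHB in WT and 21.6% ± 12.7 in KO, and the last section 13.0% ± 6.65 and 42.3% ± 9.90 (SD, n = 8).

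SLCO1C1 to SLCO1B3 did not show this turn. Its density in the last section was 1.95 ± 0.516 in WT and 1.84 ± 0.703 in KO, and in the first section 0.567 ± 0.245 and 0.426 ± 0.253. KCNJ8 to ABCC9 lay between, at 1.18 ± 0.448 in WT and 0.482 ± 0.277 in KO in the first section, and 1.10 ± 0.433 and 1.76 ± 0.331 in the last (SD, n = 8). A library had as few as 23 cells in a section.

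**Figure D4:**
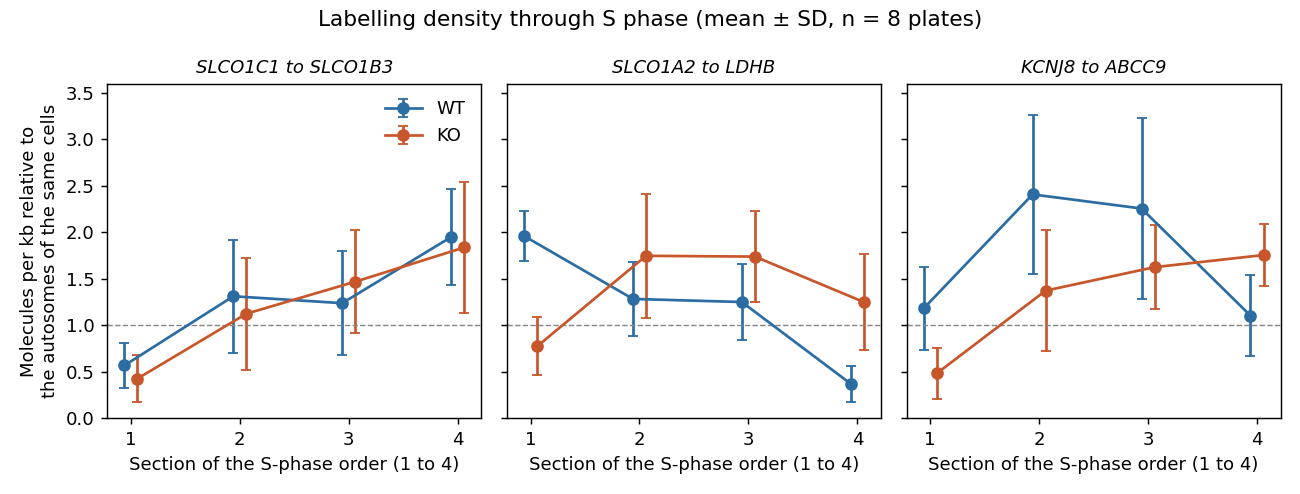
Molecules per kb relative to the autosomes of the same cells in each of 4 sections of the S-phase order (1 early, 4 late), for 3 stretches in WT and KO (mean ± SD, n = 8 plates; dashed line, the autosomal mean). From SLCO1A2 to LDHB the value in section 1 is 1.96 in WT and 0.773 in KO, while SLCO1C1 to SLCO1B3 has overlapping curves.

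The right edge of the late block that holds SLCO1C1 and SLCO1B3 was placed where smoothed timing crossed a set level. Each genotype had its own level, taken from its own curve without centring. That level lay midway between the latest point of the block and the earliest point of a 1.5 Mb stretch beyond CMAS. This stretch begins with the right flank, so the early valley at PYROXD1 did not set the level. In WT the right edge was at 21.186 Mb, inside SLCO1B1, with 21.171 to 21.199 Mb when each plate was left out. In KO it was at 21.344 Mb, inside SLCO1A2, with 21.341 to 21.357 Mb. The edge thus lay 158 kb further right in KO (141 to 181 kb over the plates left out). This shift compares crossings of different levels, and crossings of a shared level were not measured. The left edge lay outside the members and varied more with the plates, at 19.832 Mb in WT and 19.780 Mb in KO. Its shift was -52.3 kb, with -164 to -26.0 kb over the plates left out.

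Molecules in the stretch differed between genotypes by less than their spread between plates. The log2 ratio of KO over WT molecules, scaled by autosomal molecules, was -0.01 ± 0.24 for the core (higher in KO in 4 of 8 plates) and 0.07 ± 0.25 for SLCO1A2 to LDHB (5 of 8). Single members ran from -0.31 ± 0.40 for SLCO1B3 (2 of 8 plates) to 0.56 ± 1.06 for IAPP (7 of 8 plates). The log2 ratio estimated by limma voom had a median of 0.10 over the 10 members against -0.09 over all windows. Of the 10 members, limma voom called 0, and 0 had an unadjusted p under 0.05. Over 16530 windows it called 0.0847% with more and 0.702% with fewer molecules in KO, and 0.212% and 0.956% when plates were blocks. In simulated data this fit recovered only 5% of 1.5-fold and 18% of 2-fold changes. The absence of calls among the members therefore cannot show that their molecules were unchanged. The windows of IAPP and PYROXD1 held only 473 and 461 molecules over all plates, which limits their precision.

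Genes between and beside the members had differences that varied along the chromosome in the same way. Of 10 further protein-coding genes from PDE3A to ETNK1, the 9 in the fit had differences of 0.0291 to 0.263, and limma called 5 later (5.47% of all windows) and 0 earlier (13.0%). They lie in or beside the region chosen for later KO timing and some share sequence with members, SLCO1B3-SLCO1B7 with SLCO1B3 and the window of RECQL with that of PYROXD1, so this count supports nothing. GOLT1B, a Golgi transport protein, and GYS2, the liver glycogen synthase, lie between PYROXD1 and LDHB and had 0.263 ± 0.127 and 0.243 ± 0.102 (each later in 8 of 8 plates). PDE3A, a phosphodiesterase just left of SLCO1C1, had 0.128 ± 0.0481 (8 of 8 plates), more than its neighbour SLCO1C1, though that step was not tested. ETNK1 at the far right had 0.0446 ± 0.130 (4 of 8 plates).

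Relatives of the members on other chromosomes were called in either direction or not at all. Of 7 other SLCO genes, 5 were tested, and limma called 0 later and 3 earlier in KO, against 13.0% of all windows called earlier. The 3 were SLCO2A1, a prostaglandin carrier, at -0.105 ± 0.0683, SLCO4C1, a kidney carrier, at -0.107 ± 0.0889, and SLCO6A1 at -0.0983 ± 0.0889 (later in 0, 1 and 1 of 8 plates). SLCO6A1 and SLCO4C1 share chromosome 5, and whether their calls are independent was not tested. Both are late in WT, at 0.706 and 0.825, and SLCO2A1 is early, at 0.294. SLCO3A1 and SLCO5A1, also late in WT at 0.766 and 0.771, were tested and not called. A part of WT timing in these calls was not tested. ABCC8, the sulfonylurea receptor of the pancreatic channel, had -0.00121 ± 0.0794, and its partner KCNJ11 had too few molecules for the fit. Of 5 genes of sialic acid synthesis and use, 2 were tested and 0 called. These were ST3GAL1, which attaches sialic acid, and SLC35A1, which transports its activated form. GNE, NANS and NANP, which make sialic acid, had too few molecules for the fit. None of 4 other lactate dehydrogenase genes could be tested. Of 7 genes of amylin and calcitonin signalling 2 were tested: the receptor CALCRL was called later, at 0.129 ± 0.0886, and the receptor CALCR earlier, at -0.157 ± 0.102 (later in 7 and 1 of 8 plates).

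The windows most like the core were found by the share of molecules in each of 10 sections of S phase in both genotypes, 20 values in all, among 6528 windows more than 5 Mb away. They were TBC1D5, FBXL17, EDIL3, ADAMTS3 and MEI4, with Pearson correlations of 0.966 to 0.978 against a median of 0.0906. All values share the same cells and depth, so the correlation is a description. Their WT timings were 0.495 to 0.534 and their centred differences 0.0635 to 0.114, smaller than that of the core.

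MAGI2 on chromosome 7 and the pair WDR41 and PDE8B on chromosome 5 are other regions where the genotypes lay far apart. MAGI2 had timings of 0.479 ± 0.0406 in WT and 0.684 ± 0.0273 in KO, a difference of 0.176 ± 0.0533 (later in 8 of 8 plates). WDR41 and PDE8B went the other way, by -0.319 ± 0.0648 and -0.313 ± 0.0820 (later in 0 of 8 plates each). These were not tested against the SLCO1 stretch.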

How the data were processed

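Each deposited file lists the sequenced fragments of 1 plate, per the file headers, by cell barcode, chromosome, position in base pairs, length with a sign for direction, and genotype. The deposited values are other than counts: positions, to which the authors applied no scaling that a header records. Positions are on GRCh38, as the submitters' processing notes name it, while the aligner, its filters and any duplicate removal are not given in the sources used. Each fragment was taken as 1 molecule, and 6.09% to 8.57% of those of a plate had a twin with equal cell, position and direction. Titles put both genotypes on every plate, so plate numbers pair the libraries; the paired deviations correlated by -0.00456 (-0.0549 to 0.0441; other plates 0.000663).

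Cells with at least 1000 autosomal molecules were ranked by correspondence analysis of 500 kb autosomal bins, on its leading axis (18.8% of the variation); the gene-rich end was called early. Gene windows came from RefSeq (GRCh38.p14). Timing was tested with limma 3.58.1 (R 4.3.3) and molecules per window with limma voom, for windows with a mean of at least 10, with Benjamini-Hochberg adjustment over all windows. Single WT values were tested by exact sign-flip permutation over 8 plates (scipy 1.17.1, numpy 2.4.6). Molecules share cells and are not independent, so plates, not molecules, give the errors.

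The members, lists and tests were chosen with earlier results of these data known. Named genes are the 10 members, neighbours where a result turns on them, relatives from 5 lists called or tested, and the 5 windows most like the core; MAGI2, WDR41 and PDE8B were set beside it. The scripts were tested on simulated data.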

Additional observations from a re-analysis of the deposited data

Results flagged for a closer look

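Of 34 groups of 8 plates examined for the members and regions, 4 had a plate far from the rest; chance alone gives about 1 in 20. In WT, SLCO1C1 was earliest in plate 5, at 0.443. In KO, SLCO1B3 was also earliest in plate 5, at 0.588. SLCO1B1 in KO was earliest in plate 3, at 0.429, and ABCC9 in KO was latest in plate 7, at 0.751.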

How the results depend on the processing

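The core difference of 0.135 fell to 0.000505 with equal weight per labelled cell. Under that weighting the timing of so wide a region lay near the mean position of all cells. In settings chosen after seeing the data it was 0.0263 with equal weight among cells of at least 5000 molecules, 0.0590 with at most 5 molecules per cell and 0.0924 without SLCO1A2 to LDHB. Other settings gave 0.0898 (at least 5000 molecules) to 0.164 (not centred), and leaving out plates 0.119 to 0.144. Windows called later in KO fell from 359 to 128 of 6567 with equal weight. With at least 30 molecules in every library only 2055 windows were tested, and 372 were called later and 313 earlier, in place of 359 and 855 of 6567. The plate as a block gave 35 windows with more molecules in KO in place of 14 and changed no call of a member. Median-ratio size factors gave 66 windows with fewer molecules in place of 116. Leaving out each plate gave 5 to 27 with more, 76 to 118 with fewer, and 3 to 6 adjacent WT pairs in place of 5. The pairs were then tested on fewer plates, where the smallest possible raw p is larger. The right WT edge lay at 21.147 Mb with at least 5000 molecules per cell, and the left KO edge at 19.673 to 19.789 Mb over plates left out. With at least 5000 molecules per cell, 3 of 5 members tested were called later (SLCO1B1, SLCO1A2 and ABCC9), as were 455 of all 4075 windows, and nothing is read from this. Member values under other settings stayed within 1 SD of the main value in 214 cases and not in 4; the cause was not tested. The 4 were WT timing of SLCO1B3, at 0.593 with at least 5000 molecules per cell and 0.565 with equal weight, and the differences of SLCO1A2 and ABCC9, at 0.105 and 0.0325 with equal weight. Depth was a limit too: 3 members had under 10 molecules in a library.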
